A study of Mus musculus with 12 samples.

Results

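The 9 genes described here encode enzymes and a transporter of glucose and fructose metabolism: Pck1, Pck2, Pcx, Fbp1, G6pc, Slc37a4, Khk, Gpt2 and Mdh1. They were taken from the 33188 genes of a kidney RNA-seq table by gene symbol, and each symbol matched 1 row. All 9 had enough counts to be tested, among 19772 tested genes. The kidneys came from wild-type mice in 3 groups of 4 samples, namely untreated controls (CTL), a hyperuricemia model made with potassium oxonate and hypoxanthine (HUA), and the same model given the decoction Xin-Zi-Sheng-Wan (XZSW). Potassium oxonate inhibits uricase, the enzyme that breaks down uric acid in mice, and hypoxanthine is a purine from which uric acid is formed. For strain, sex, age, doses and duration, the sources used here give nothing. The labels do not tell whether the 4 samples in each group were different animals, and the p-values therefore reflect only how these samples vary, which could be technical.

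Gluconeogenesis is the synthesis of glucose from lactate, glutamine, glycerol and other precursors. Among body tissues the liver and the kidney cortex release the glucose so formed, and in the kidney the pathway lies in the proximal tubule, the segment that reabsorbs most filtered solutes. The same cells take up fructose and phosphorylate it with ketohexokinase, a reaction that spends ATP and is known to feed purine breakdown and uric acid formation.

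Library totals ranged from 51.6 to 74.3 M counts. Levels across groups are given as CPM (counts scaled to library size with TMM factors), and levels between genes as the deposited FPKM, which is per length. Changes were tested with edgeR's quasi-likelihood test over all 12 libraries, and a gene is said to have risen or fallen where its p, adjusted by the Benjamini-Hochberg method across the tested genes, was below 0.05. Libraries did not all resemble the others of their group. Relative to the controls, genes of high GC content were favoured in HUA2, HUA3, HUA4, XZSW3 and XZSW4, by 0.227 to 0.367 on the log2 scale for each 10% of GC, while HUA1, XZSW1 and XZSW2 had values of -0.0605, 0.0218 and 0.0131, inside or near the control range of -0.0455 to 0.05. The latter 3 libraries stood apart from the controls by gene length instead, at 0.244, 0.169 and 0.123 on the log2 scale per doubling of length, where CTL ran from -0.0104 to 0.00749 and the other 5 libraries from -0.0828 to 0.0597. HUA had 9.47% ± 1.75 mitochondrial counts (mean ± SD, n = 4), CTL 13.1% ± 1.44 and XZSW 16.1% ± 1.77, a share lower in HUA like most members, and its part in their changes was not tested. Results with this split of the libraries added to the fit are given further on. Group membership of the columns rested on letters in the sample descriptions, and if those of HUA and XZSW were exchanged, their values here would be exchanged.

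In GRCm38 the members lie on 8 chromosomes. Pck1 is at chr2:173153048-173159273, Pck2 at chr14:55540266-55551242, Pcx at chr19:4510472-4621752, G6pc at chr11:101367561-101377903, Khk at chr5:30921431-30931248, Slc37a4 at chr9:44396852-44402966 and Gpt2 at chr8:85492576-85527560, all on the plus strand. Fbp1 at chr13:62864753-62888282 and Mdh1 at chr11:21556692-21572367 are on the minus strand. Pcx overlaps Lrfn4 on the opposite strand over 3883 bases and Mdh1 overlaps Wdpcp on the opposite strand over 133 bases. The libraries were strand-specific, and whether the counting used strand is not given in the sources used here.

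Promoters of all 9 genes were found in RefSeq (GRCm38.p6), and the 250 bases before each start were searched on both strands for short motifs of factors known to act on gluconeogenic genes. The cAMP response element core ACGTCA, the site class through which cAMP signals act on Pck1, was found in Pck1 and Slc37a4 and in 6.46% of all 32817 promoter windows of this length. The HNF1 motif GTTAAT, recognised by a transcription factor of liver and proximal tubule, was found in Pck1, Khk and G6pc and in 6.44% of windows. The ATF4 core TGATGCA was found in G6pc and in 2.68% of windows. CAAAGTC, an HNF4 core found in 3.84% of windows, and GTAAACA, a FOXO core found in 3.16%, matched no member in these windows. The plus-strand stretches of 30 bases around the matches of the first 2 motifs are shown because they mark which members share letters before a RefSeq start, with the match in capitals. For Khk and Slc37a4 the RefSeq start lies 128 and 94 bases inside the gene spans given above, so their stretches fall within those spans. They lie at chr2:173152970-173152999 and chr2:173152869-173152898 (Pck1), chr9:44396873-44396902 (Slc37a4), chr5:30921487-30921516 (Khk) and chr11:101367483-101367512 (G6pc).
Pck1, cAMP response element core: ggcctgccccttACGTCAgaggcgagcctc
Slc37a4, cAMP response element core: tgacaggcaggaTGACGTctccatcccagg
Pck1, HNF1 motif: ctcccaacattcATTAACaaccacaagttc
Khk, HNF1 motif: tcacgtgacaccGTTAATctggcgcggggg
G6pc, HNF1 motif: cagtgtgcccaaGTTAATaattggctctgc
A match is a description of the letters and not of binding, which was not measured.

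In control kidney the genes spanned a wide range of FPKM. Pck1 was at 1810.0 ± 242 FPKM (mean ± SD, n = 4) and ranked 25 among all genes. Fbp1 followed at 583 ± 30.9, Mdh1 at 410.3 ± 14.3, Khk at 262 ± 29.1, G6pc at 179.7 ± 31.1, Pcx at 109 ± 4.16 and Slc37a4 at 69.7 ± 4.96 FPKM. These 7 genes were all among the 589 most abundant. Gpt2 at 10.01 ± 1.29 and Pck2 at 1.34 ± 0.309 FPKM stood far lower, and no neighbours in the order of the 9 genes overlapped across the control libraries. In HUA the order was Pck1, Fbp1, Mdh1, Khk, Pcx, G6pc, Slc37a4, Gpt2 and Pck2, with 522 ± 339.9 FPKM for Pck1, 38.0 ± 39.4 for G6pc and 30.5 ± 17.8 for Gpt2. There the libraries of most neighbours overlapped, and gaps were seen only below Khk and below Gpt2. In XZSW the order was again that of the controls, with 1387 ± 878 FPKM for Pck1 and 2.07 ± 0.607 for Pck2. Fbp1 and Mdh1 overlapped there, as did Khk with G6pc, G6pc with Pcx, and Pcx with Slc37a4.

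**Figure D1:**
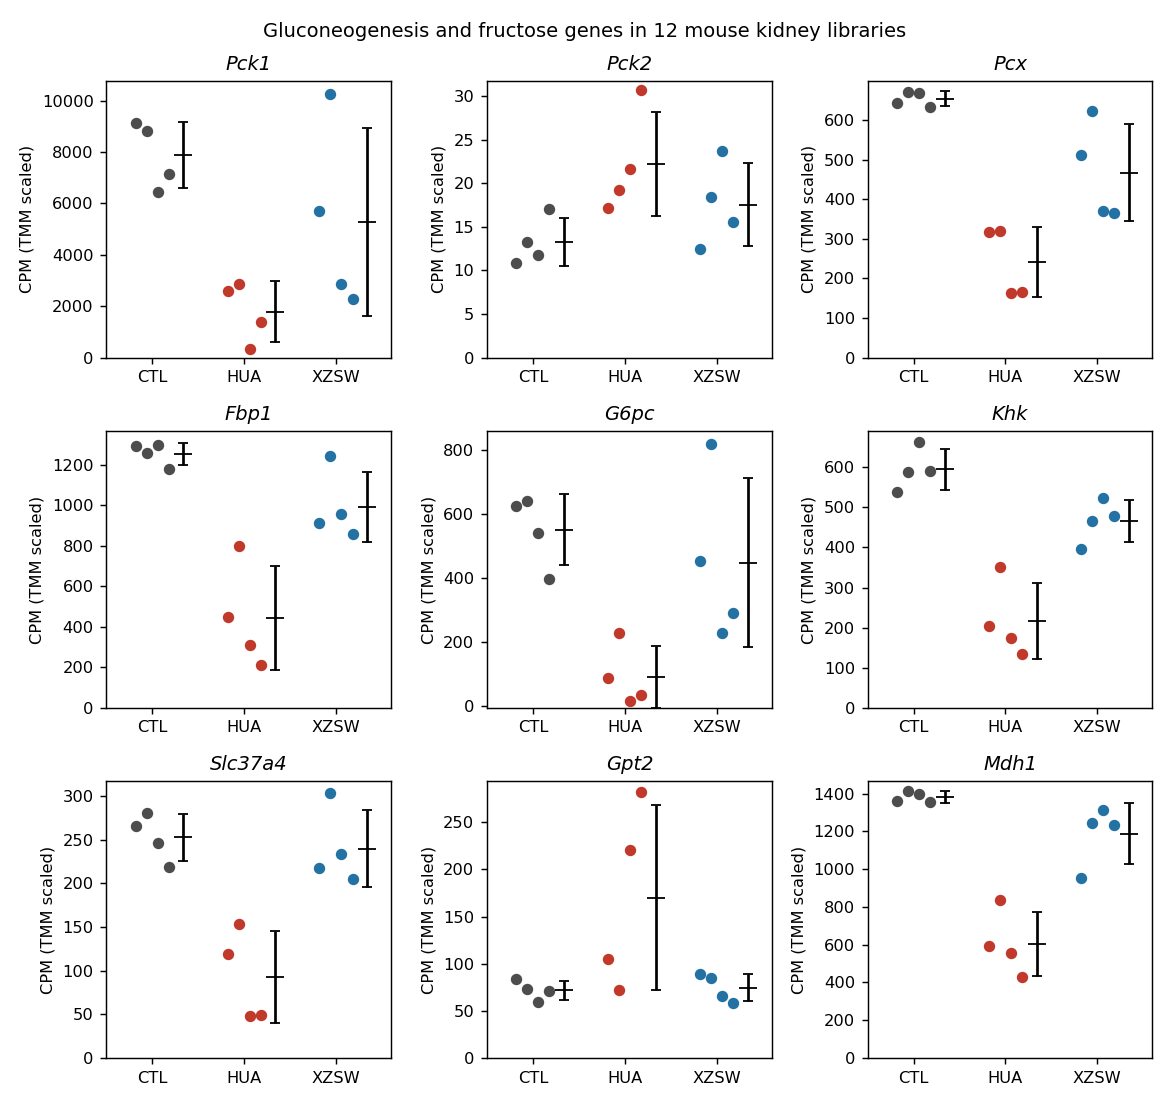
CPM (vertical axes, 1 panel per gene) of the 9 genes in the 12 libraries, with points for libraries and, beside them, a line and whiskers for the mean and SD of each group. For 7 genes every HUA point lies below every CTL point, while Pck2 lies above and Gpt2 is highest in HUA3 and HUA4.

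HUA was first set against CTL, the effect of the hyperuricemia model. Of the 9 genes, 7 fell and 2 rose in HUA, all 9 past the test beside 27.8% of all tested genes. Pck1, Pcx, Fbp1, G6pc, Slc37a4, Khk and Mdh1 fell by factors from 2.29 for Mdh1 to 6.01 for G6pc, and Pck2 and Gpt2 rose 1.68-fold and 2.37-fold. By the same test 12.8% of all tested genes fell and 14.9% rose, a split that library-total scaling moved to 1320 falling and 5779 rising genes, against 2538 and 2950. In 7 of 9 genes all HUA libraries were below all CTL libraries, which held for 15.2% of all tested genes, and in 1 of 9, Pck2, they were all above, against 15.1%. The median log2 change of the 9 genes was -1.45, beside 0.06 over all tested genes. Because these are whole kidneys, fewer cells of a type and less RNA per cell cannot be told apart.

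XZSW against HUA sets the model with the decoction beside the model without it. By edgeR 7 of the 9 genes passed the test, beside 15.4% of all tested genes. Of these 6 rose, beside 7.09% of all tested genes, and 1 fell, beside 8.34%. Pcx, Fbp1, G6pc, Slc37a4, Khk and Mdh1 rose between 1.94-fold and 4.89-fold, Gpt2 fell, and Pck1 and Pck2 did not pass the test. In the 6 genes that rose, all XZSW libraries were above all HUA libraries by CPM, which held for 8.98% of all tested genes. In 0 genes were all XZSW libraries below all HUA libraries, against 9.08%. The median log2 change of the 9 genes was 1.11, beside 0.01 over all tested genes. Fitted on the 8 libraries of these groups alone, 2 of the 9 genes, Khk and Mdh1, passed the test. Fewer of all tested genes were called in that fit too, with the counts given in the last section.

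In the comparison of XZSW with CTL, 0 of the 9 genes passed edgeR's test, beside 4.99% of all tested genes, of which 2.72% rose and 2.27% fell. Unadjusted, 0 of 9 had a p under 0.05. DESeq2 and limma on log2(FPKM + 1) also called 0 of 9. Of all tested genes DESeq2 called more than edgeR did, as given in the last section, and the count for that limma fit is not given here. Even so, Pcx, Khk and Mdh1 were lower in every XZSW library than in every CTL library, 3 of 9 genes beside 11.3% of all tested genes, and 0 of 9 were higher in every library, beside 10.3%. Each pair of comparisons shares a group of libraries, so the 3 sets of changes are not independent of each other.

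**Figure D2:**
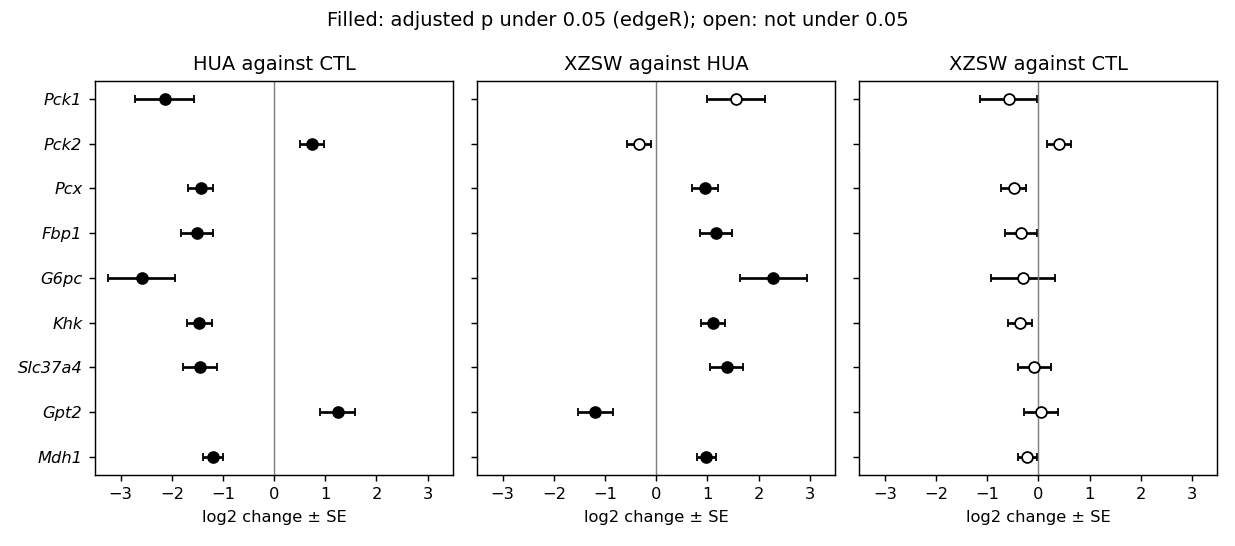
Log2 change of each gene (horizontal axis) in the 3 comparisons of HUA, XZSW and CTL, with bars of 1 SE to either side from edgeR's fit and filled points for genes with an adjusted p under 0.05. The 7 genes that fell in HUA lie left of 0 in the first comparison and right of 0 in the second, and all 9 points of the third comparison are open.

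Pcx encodes pyruvate carboxylase, which makes oxaloacetate from pyruvate in mitochondria and so starts gluconeogenesis from lactate and alanine. It stood at 644, 671, 669 and 633 CPM in CTL1 to CTL4, at 318, 319, 162 and 167 in HUA1 to HUA4, and at 513, 623, 371 and 365 in XZSW1 to XZSW4. The HUA libraries lay below all others, and the XZSW libraries lay between the other groups without overlap. Its log2 change was -1.44 (SE 0.25, edgeR adjusted p = 0.00125) in HUA against CTL. In XZSW against HUA it was 0.95 (SE 0.25, edgeR adjusted p = 0.0213), a call lost without HUA3 (0.79, adjusted p = 0.0599), HUA4 (0.80, 0.0514) or XZSW2 (0.79, 0.0674). Against CTL it was -0.48 in XZSW (SE 0.25, edgeR adjusted p = 0.259).

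Mdh1 encodes cytosolic malate dehydrogenase, which turns malate exported from mitochondria back into oxaloacetate in the cytosol. Its CPM were 1359, 1416, 1398 and 1355 in CTL1 to CTL4, 591, 838, 558 and 428 in HUA1 to HUA4, and 954, 1247, 1316 and 1236 in XZSW1 to XZSW4. The 3 groups did not overlap, and XZSW1 was the low library of its group. Mdh1 fell in HUA by 1.19 on the log2 scale (SE 0.19, edgeR adjusted p = 0.000665) and rose in XZSW against HUA by 0.98 (SE 0.19, adjusted p = 0.00508). It kept both calls when any 1 library was left out.

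Pck1 and Pck2 encode the cytosolic and the mitochondrial phosphoenolpyruvate carboxykinase, which turn oxaloacetate into phosphoenolpyruvate, a rate-controlling step of the pathway. Pck1 was at 9128, 8805, 6466 and 7134 CPM in CTL1 to CTL4, at 2579, 2885, 323 and 1377 in HUA1 to HUA4, and at 5689, 10268, 2862 and 2268 in XZSW1 to XZSW4. HUA3 was lowest, all HUA libraries lay below CTL, and XZSW spread from the HUA range to above the highest control. Pck1 fell in HUA by 2.14 on the log2 scale (SE 0.58, edgeR adjusted p = 0.0148), a factor of 4.40. Its change in XZSW against HUA was 1.56 (SE 0.57, interval of 1.96 SEs to either side 0.44 to 2.67, edgeR adjusted p = 0.0829), while DESeq2 gave 1.55 with an adjusted p of 0.0348. Against CTL, XZSW differed by -0.58 (interval -1.67 to 0.51, edgeR adjusted p = 0.578), so a loss of more than 2-fold lies inside the interval.

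Pck2 moved the other way at a level far below that of Pck1. Its CPM were 10.8, 13.3, 11.8 and 17.1 in CTL1 to CTL4, 17.2, 19.3, 21.6 and 30.7 in HUA1 to HUA4, and 12.5, 18.4, 23.7 and 15.5 in XZSW1 to XZSW4. The lowest HUA library stood just above the highest control, and XZSW overlapped both groups. Pck2 rose in HUA by 0.74 on the log2 scale (SE 0.23, edgeR adjusted p = 0.0296). The call was lost without CTL1 (0.66, adjusted p = 0.0884), CTL2 (0.75, 0.0672), CTL3 (0.69, 0.0816) or HUA4 (0.58, 0.0786). Its change in XZSW against HUA was -0.34 (SE 0.23, edgeR adjusted p = 0.36).

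Fbp1 encodes fructose bisphosphatase, which removes a phosphate from fructose bisphosphate and opposes phosphofructokinase. It was at 1292, 1257, 1297 and 1179 CPM in CTL1 to CTL4, at 450.3, 799, 310.0 and 209 in HUA1 to HUA4, and at 915, 1245, 959 and 856 in XZSW1 to XZSW4. HUA2 was the highest HUA library and lay below every library of the other groups. Fbp1 fell in HUA by 1.51 on the log2 scale (SE 0.32, edgeR adjusted p = 0.00361). It rose in XZSW against HUA by 1.17 (SE 0.31, edgeR adjusted p = 0.0247), a call lost without HUA3 (1.02, adjusted p = 0.0757) or XZSW2 (1.04, 0.0686).

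G6pc encodes the catalytic subunit of glucose-6-phosphatase, which releases free glucose inside the endoplasmic reticulum, and Slc37a4 encodes the transporter that brings glucose-6-phosphate to it. G6pc was at 625, 642, 541 and 398 CPM in CTL1 to CTL4, at 87.4, 228, 16.0 and 36.0 in HUA1 to HUA4, and at 454, 818, 231 and 291 in XZSW1 to XZSW4. HUA3 was the lowest library, and all 4 HUA libraries lay below both other groups, HUA2 only just below XZSW3. By FPKM, HUA2 was at 94.1 and XZSW3 at 92.2, so HUA and XZSW overlapped on that measure. G6pc fell in HUA by 2.59 on the log2 scale (SE 0.66, edgeR adjusted p = 0.0104). Without HUA2 it fell by 3.54. It rose in XZSW against HUA by 2.29 (SE 0.65, edgeR adjusted p = 0.0311). That call was lost without HUA1 (2.25, adjusted p = 0.0547), HUA3 (1.92, 0.0537), HUA4 (2.01, 0.0750), XZSW1 (2.28, 0.0543) or XZSW2 (1.83, 0.0930), and without HUA2 the rise was 3.25.

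Slc37a4 was at 266, 280.0, 247 and 218 CPM in CTL1 to CTL4, at 119, 154, 48.5 and 49.0 in HUA1 to HUA4, and at 217, 304, 233 and 205 in XZSW1 to XZSW4. HUA3 and HUA4 were low and alike, all HUA libraries lay below the others, and XZSW overlapped CTL. It fell in HUA by 1.45 on the log2 scale (SE 0.32, edgeR adjusted p = 0.00528) and rose in XZSW against HUA by 1.38 (SE 0.32, adjusted p = 0.0137). Both calls were kept with any 1 library left out. The transporter thus fell in the same libraries as the phosphatase, by a smaller factor of 2.73 against 6.01, a difference between genes that was not tested.

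Khk encodes ketohexokinase, the first enzyme of fructose breakdown. Its CPM were 539, 589, 663 and 590.4 in CTL1 to CTL4, 204, 351, 174 and 134 in HUA1 to HUA4, and 395, 465, 524 and 479 in XZSW1 to XZSW4. The 3 groups did not overlap, with XZSW between the others. Khk fell in HUA by 1.46 on the log2 scale (SE 0.24, edgeR adjusted p = 0.000912), a factor of 2.76. It rose in XZSW against HUA by 1.11 (SE 0.24, edgeR adjusted p = 0.00898) and kept both calls with any 1 library left out. In XZSW against CTL its change was -0.35 (interval -0.82 to 0.11, edgeR adjusted p = 0.397).

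Gpt2 encodes mitochondrial alanine aminotransferase, which exchanges the amino group between alanine and glutamate and yields or uses pyruvate. It was at 83.6, 73.6, 59.0 and 70.6 CPM in CTL1 to CTL4, at 105, 72.0, 221 and 282 in HUA1 to HUA4, and at 89.1, 84.9, 65.7 and 58.7 in XZSW1 to XZSW4. HUA3 and HUA4 were high, HUA2 lay inside the range of the other groups, and CTL and XZSW overlapped. Gpt2 rose in HUA by 1.25 on the log2 scale (SE 0.34, edgeR adjusted p = 0.0156), and without CTL3 by 1.16 (0.0502). It fell in XZSW against HUA by 1.19 (SE 0.34, edgeR adjusted p = 0.0326). Without HUA3, HUA4, XZSW2, XZSW3 or XZSW4 the change was -1.06, -0.84, -1.26, -1.16 or -1.09, with adjusted p-values of 0.0620 to 0.0953.

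The size of the fall differed between the HUA libraries. Relative to the control mean, the median log2 level of the 9 genes was -1.23 in HUA1, -0.72 in HUA2, -2.01 in HUA3 and -2.14 in HUA4, and 7 of 9 genes lay below the control mean in each. G6pc was the lowest of the 9 in HUA1, HUA3 and HUA4, at -2.63, -5.08 and -3.91, and Pck1 in HUA2, at -1.44. In XZSW the medians were -0.35, 0.25, -0.18 and -0.31 in XZSW1 to XZSW4. Pck1 was the lowest of the 9 in XZSW3 at -1.45 and in XZSW4 at -1.78. G6pc came next at -1.23 and -0.90, then Pcx at -0.82 and -0.84. In each of these libraries 8 of the 9 genes lay below the control mean, and Pck2 lay above it.

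**Figure D3:**
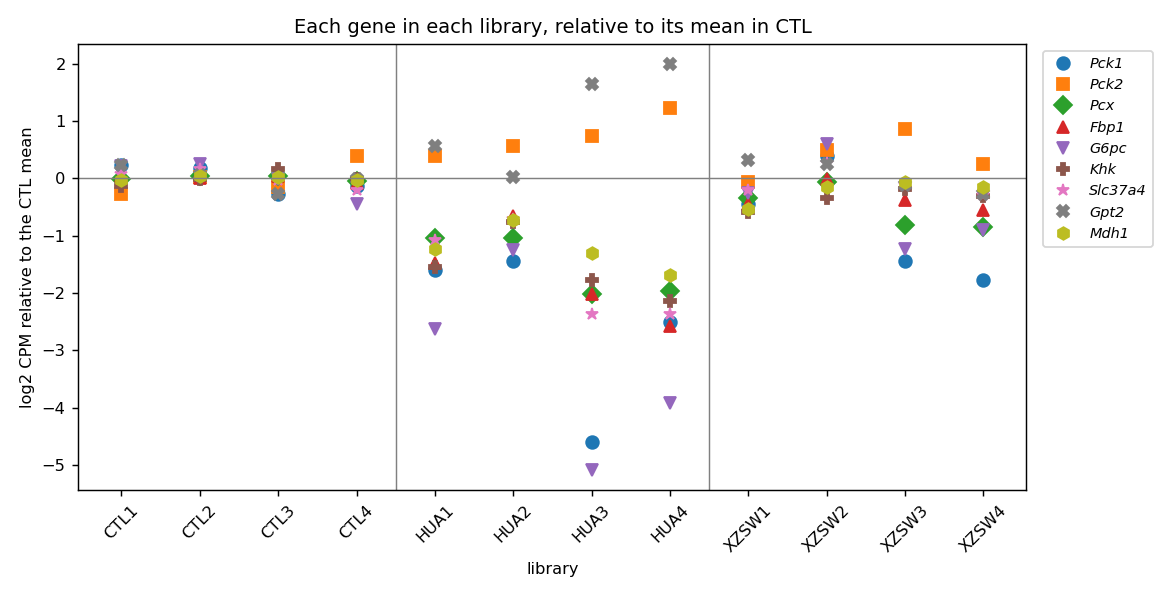
Log2 CPM of each gene relative to its control mean (vertical axis) in the 12 libraries, with 1 colour and symbol per gene. HUA3 and HUA4 hold the lowest values of G6pc and Pck1 and the highest of Gpt2, and Pck1 is below the control mean in XZSW3 and XZSW4.

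In XZSW, Pck1, G6pc and Pcx ran along the GC split of the libraries. In HUA the medians were -0.72, -2.01 and -2.14 in HUA2, HUA3 and HUA4, which had the GC shift, with slopes of 0.227, 0.334 and 0.367. The median was -1.23 in HUA1, which did not have the shift. The part of the GC shift in these levels was not tested. Pck1 in XZSW was at 5689 and 10268 CPM in the libraries without the GC shift and at 2862 and 2268 in those with it, whereas Khk and Mdh1 were not lower in the shifted ones. Within the libraries without the shift (1 HUA, 2 XZSW), the log2 difference of XZSW from HUA was 1.57 for Pck1, 0.83 for Pcx, 1.24 for Fbp1, 2.80 for G6pc, 1.07 for Khk, 1.11 for Slc37a4 and 0.88 for Mdh1. Within the shifted libraries (3 HUA, 2 XZSW) these differences were 1.23, 0.84, 1.28, 2.35, 1.31, 1.61 and 1.12, and Gpt2 differed by -1.41, against -0.27 in the unshifted ones. Pck1 overlapped between the groups among the shifted libraries. The unshifted HUA and XZSW libraries are those with the length shift. All CTL libraries were on the unshifted side, which leaves 1 HUA library to compare with them there. With the split as a further term, an alternative chosen after the data were seen, 4 genes fell in HUA (Pcx, Fbp1, Khk and Mdh1) and 0 rose by edgeR. Pck1 was then at -1.20 (edgeR adjusted p = 0.213), G6pc at -1.99 (0.134), Slc37a4 at -1.20 (0.0535), Pck2 at 0.43 (0.273) and Gpt2 at 1.20 (0.0879). In XZSW against HUA the term left 5 rises, with G6pc at 1.95 (edgeR adjusted p = 0.0761) and Gpt2 at -1.17 (0.0606). The share of all tested genes called with this term in HUA against CTL and XZSW against HUA is not given here. Whether the members lost more calls than genes at large therefore cannot be read from these counts.

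Ratios of related enzymes within a library do not depend on how libraries were scaled. The shifts by GC content and gene length need not cancel between the genes of a ratio, and their part in these ratios was not tested. The FPKM ratio of Pck1 to Pck2, the cytosolic to the mitochondrial form, was 1417 ± 414 in the controls, 205 ± 161 in HUA and 732 ± 502 after the decoction (mean ± SD, n = 4). HUA lay below CTL without overlap, a difference of -3.27 in mean log2 ratio (exact two-sided permutation p = 0.0286, adjusted over 12 tests 0.0429), and XZSW overlapped both groups. Without HUA3 this difference was -2.58. With 4 against 4 libraries 0.0286 is the smallest p this test can give. In XZSW against HUA the difference was 2.06 (exact permutation p = 0.171, adjusted p = 0.187), and in XZSW against CTL it was -1.21 (exact permutation p = 0.143, adjusted p = 0.171). Without HUA3 the former was 1.37.

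Gpt2 and Gpt, the mitochondrial and the cytosolic alanine aminotransferase, moved apart. Gpt fell in HUA by 1.78 on the log2 scale and rose in XZSW against HUA by 1.18, opposite to Gpt2. The ratio of Gpt2 to Gpt was 0.855 ± 0.107 in CTL, 8.60 ± 6.84 in HUA, where it ran from 1.96 to 17.3, and 1.35 ± 0.0540 in XZSW. No 2 groups overlapped, with differences in log2 ratio of 2.90 in HUA against CTL, -2.24 in XZSW against HUA and 0.67 in XZSW against CTL (exact permutation p = 0.0286 and adjusted p = 0.0429 for each). Gpt2 alone did not differ between XZSW and CTL by more than its spread, at 0.06 (interval -0.60 to 0.72, edgeR adjusted p = 0.943).

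The ratio of Mdh1 to Mdh2, the mitochondrial malate dehydrogenase, was 4.01 ± 0.113 in CTL, 2.203 ± 0.554 in HUA and 3.27 ± 0.299 in XZSW. The groups did not overlap, with log2 differences of -0.90, 0.60 and -0.30 in the 3 comparisons (exact permutation p = 0.0286 and adjusted p = 0.0429 for each). Mdh2 itself did not pass edgeR's test in HUA against CTL, at -0.33 (adjusted p = 0.093). G6pc3, the broadly expressed form of the phosphatase, was at 46.5 ± 2.62, 48.9 ± 11.7 and 54.0 ± 12.7 CPM in CTL, HUA and XZSW. The ratio of G6pc to G6pc3 was 11.02 ± 2.55, 1.96 ± 2.08 and 8.40 ± 5.73, lower in all HUA than in all CTL libraries by 3.26 on the log2 scale (exact permutation p = 0.0286, adjusted p = 0.0429). In XZSW against HUA it differed by 2.63 with overlap (exact permutation p = 0.0857, adjusted p = 0.114), and in XZSW against CTL by -0.64 (exact permutation p = 0.314). For G6pc to G6pc3 the difference of HUA from CTL was -3.96 without HUA2 and -2.60 without HUA3, and that of XZSW from HUA 3.33 and 1.96.

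**Figure D4:**
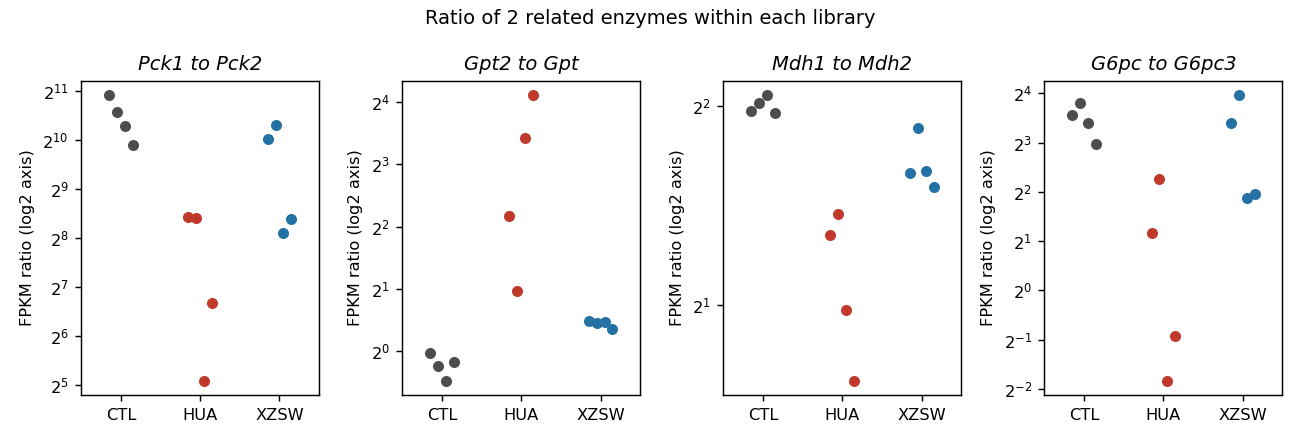
Ratio of FPKM within each library (logarithmic vertical axes) for Pck1 to Pck2, Gpt2 to Gpt, Mdh1 to Mdh2 and G6pc to G6pc3, with points for libraries. The HUA points lie apart from all CTL points in each of the 4 panels.

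The genes of neighbouring steps were counted by edgeR's test from lists chosen with results of these data known, so the counts are descriptions. Of 8 tested genes of the reversible steps shared with glycolysis, 3 fell in HUA and 0 rose, with a median log2 change of -0.29. Library-total scaling turned this median to 0.04, with 1 rise and 1 fall. Among them were Pgam1, a phosphoglycerate mutase (-0.48), and Pgk1, a phosphoglycerate kinase (-0.48), and in XZSW against HUA 1 gene of the list rose. Of 9 genes of fructose and polyol metabolism other than Khk, 6 fell in HUA and 1 rose, and in XZSW against HUA 5 rose and 1 fell. The falls in HUA were 3 by library totals, and the rises in XZSW were 2 without HUA1, XZSW1 and XZSW2. Without those libraries the median log2 change in XZSW against HUA was 0.88, beside 0.91 with all. Glyctk, the glycerate kinase that finishes fructose breakdown, changed by -1.48 and then 1.23, and Tkfc, which phosphorylates glyceraldehyde, by -0.67 and then 0.79. Akr1b8, an aldo-keto reductase, went the other way (3.28 and -2.01). Slc2a5, the fructose transporter GLUT5, was at -1.12 in HUA (adjusted p = 0.0605) and did not pass.

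Of 16 genes through which lactate, alanine, glycerol and aspartate carbon enters, 11 fell in HUA and 0 rose. In XZSW against HUA 8 rose, or 4 without HUA1, XZSW1 and XZSW2, with median log2 changes of 0.65 and 0.60. Gpd1, the cytosolic glycerol phosphate dehydrogenase, changed by -1.56 and 1.24, and Slc25a10, the mitochondrial dicarboxylate carrier that exports malate, by -1.60 and 0.98. Of 8 genes of glutamine entry and ammonia formation, 4 fell in HUA and 3 rose in XZSW against HUA, among them Ogdh, an oxoglutarate dehydrogenase subunit (-0.62 and 0.67). The 4 falls became 1 by library-total scaling and 1 with the GC split as a term. Slc38a3, the basolateral glutamine transporter, fell in HUA by 0.92. Among 4 glucose transporters, Slc2a2 (GLUT2) fell in HUA by 0.76 and rose in XZSW against HUA by 0.52, while Slc2a1 (GLUT1) rose by 1.52 and then fell by 1.15. Slc5a2 (SGLT2) did not pass in HUA, at -0.53 (adjusted p = 0.113), and rose by 1.12 in XZSW against HUA.

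Of 13 tested glycolytic enzymes that run against gluconeogenesis, 6 rose in HUA and 1 fell, with a median log2 change of 0.84, and in XZSW against HUA 5 fell and 1 rose. With the GC split as a term 4 rose and 0 fell in HUA. Without HUA1, XZSW1 and XZSW2 1 fell and 1 rose in XZSW against HUA, with a median of -0.29, beside -0.50 with all libraries. Hk2, an inducible hexokinase, went from 0.953 ± 0.195 CPM in CTL to 17.8 ± 14.4 in HUA and 2.78 ± 1.93 in XZSW, with log2 changes of 4.22 and -2.68. Hkdc1, a hexokinase-like gene, changed by 1.60 and -1.27, and Pfkp, the platelet form of phosphofructokinase, by 1.22 and -0.997. Pfkm, the muscle form, fell by 1.004 and then rose by 0.82. Of 8 tested relatives of the members, Gpt fell and Slc37a1 rose in HUA (1.22), and Fbp2 fell in XZSW against HUA by 0.55.

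Of 20 regulators of gluconeogenic genes, 9 fell in HUA and 0 rose, and in XZSW against HUA 7 rose and 1 fell. In HUA, 5 fell and 2 rose by library-total scaling, and 5 fell and 2 rose with the GC split as a term. Klf15, a fasting-responsive transcription factor, changed by -1.63 and 0.88, Esrra, a nuclear receptor of mitochondrial genes, by -1.08 and 1.14, and Pth1r, the parathyroid hormone receptor, by -0.91 and 0.61. Another pair was picked after its values were seen, Hnf4a (-0.997 and 0.72, both called) and Ppargc1a, which fell by 0.84 and was at 0.50 in XZSW against HUA (adjusted p = 0.229). In XZSW against CTL, the calls in all these pathway lists were Irs2, an insulin receptor substrate, which fell by 1.35, Ldha, a lactate dehydrogenase subunit, which fell by 0.54, and Slc7a8, an amino acid transporter, which rose by 0.90.

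**Figure D5:**
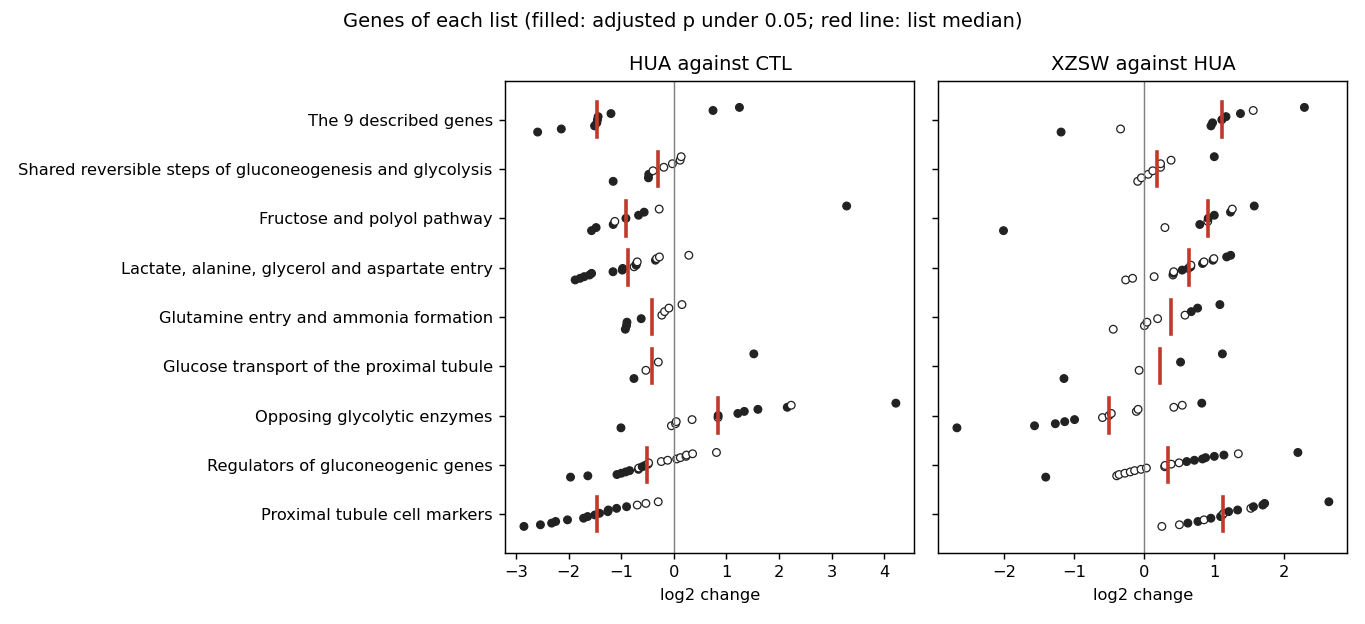
Log2 change of each tested gene (points, filled at an edgeR adjusted p under 0.05) of the members, the pathway lists and the proximal tubule markers, with the median of each list as a red line, for HUA against CTL and XZSW against HUA. Opposing glycolytic enzymes have a median above 0 in HUA, and the members, fructose genes and precursor entry genes a median below 0.

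Markers of the proximal tubule, the cell type that holds the pathway, moved with the members. All 16 were detected, 13 fell in HUA and 0 rose, with a median log2 change of -1.46, and 11 rose in XZSW against HUA. Without HUA1, XZSW1 and XZSW2 the rises were 3, where the members' rises were 2. The median log2 changes of markers and members in that smaller fit were 1.11 and 1.05. With all libraries they were 1.13 and 1.11. Their summed level was 15470 to 19573 CPM in CTL, 3239 to 8988 in HUA and 12857 to 17411 in XZSW. Slc22a8, an organic anion transporter, changed by -2.32 and 2.64, and Ggt1, a brush border enzyme, by -1.41 and 0.77. Slc5a2 and Slc5a12 are also on the lists of glucose transport and lactate entry. The part of proximal tubule cell number or state in the members' changes was not tested.

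Markers of other cells were read beside the members because liver also holds gluconeogenesis. The summed liver list was at 2859 to 4203 CPM in CTL, 426 to 2446 in HUA and 2089 to 5236 in XZSW, of which Cyp2e1, also a kidney gene, made up 3544, 1159 and 3201 CPM on average. Ahsg was at 0 in CTL and HUA, and Ahsg, Tat, Cps1 and Apoa2 each had a mean below 1 CPM in every group. Of 8 tested liver markers 2 rose and 3 fell in HUA, with log2 changes from -7.19 to 7.54 and a median of -0.69. In XZSW against HUA 4 rose, with changes from -1.47 to 8.41 and a median of 1.80. Without HUA1, XZSW1 and XZSW2 the rises were 1, with a median of 1.21. In XZSW against CTL 1 rose, and the median was 2.01. Macrophage markers summed to 58.0 to 98.6 CPM in CTL, 226 to 331 in HUA and 61.5 to 158 in XZSW. Of 8 genes 5 rose in HUA and 4 fell in XZSW against HUA, or 1 without those 3 libraries. The median log2 change in XZSW against HUA was -1.01, and -0.72 without those 3 libraries. The adipocyte list summed to 64.5 to 116, 36.6 to 71.1 and 49.7 to 458 CPM, with XZSW1 highest, and of 5 tested genes 0 changed in HUA by edgeR and 1, Car3, rose in XZSW against HUA. Of 10 markers of other nephron segments, 1 rose and 2 fell in HUA and 4 rose in XZSW against HUA. The part of these cells in the members' changes was not tested.

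For each member the gene with the most similar profile was sought over the 12 libraries among 10984 genes, as the smallest root mean square difference of log2 CPM relative to the control mean. Pcx was nearest to Acad11, an acyl-CoA dehydrogenase (0.0935), Mdh1 to Aadac (0.106), Fbp1 to Haao (0.131), Khk to Cbs, cystathionine beta-synthase (0.141), and Slc37a4 to Sardh, sarcosine dehydrogenase (0.154). Pck2 was nearest to Ccdc9 (0.193) and Gpt2 to Acat3 (0.271). The most variable members had the least close neighbours, with 0.429 for Pck1 and AW822252 and 0.458 for G6pc and Acot3, an acyl-CoA thioesterase. Sardh fell in HUA by 1.48 on the log2 scale and rose by 1.37 in XZSW against HUA, beside -1.45 and 1.38 for Slc37a4.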

How the data were processed

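RNA was measured in 12 mouse kidney samples. Per the labels' protocols, RNA was extracted with TRIzol for strand-specific libraries. The submitters' processing notes name cutadapt 1.9, HISAT2 2.2.1 and GRCm38. How counting was done, with which annotation and strand setting, is not given in the sources used here. Each gene of the deposited table has, per the file headers, the authors' raw count in each library beside its FPKM.

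Counts were filtered with filterByExpr, scaled by TMM and tested with edgeR 4.0.16 (R 4.3.3) quasi-likelihood tests over all 12 libraries and 19772 genes, with Benjamini-Hochberg adjustment over all of them. FPKM ratios were tested by exact permutation. Scripts were tested on simulated data. Positions are from GENCODE M21 and sequences from RefSeq. The members and lists were chosen with earlier results of these data known. Besides the members, genes were named by a rule: from each list the 3 with the smallest p in HUA against CTL and the 1 with the smallest in XZSW against HUA, the partners in ratios, and the nearest profile. Some genes the rule selects are not reported here. Alternatives were other scalings, filters and samples, DESeq2 1.42.0, limma 3.58.1, the replicate number as a block, and fits that each left out 1 library. The split by GC slope was chosen after the data were seen.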

Additional observations from a re-analysis of the deposited data

Results flagged for a closer look

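Of 57 groups of 4 values checked for a library far from the others, 2 held one, and chance flags about 1 in 20 groups. The summed proximal tubule markers were at 17411 CPM in XZSW2, where the other XZSW libraries were at 12857 to 13517. XZSW2 also had the highest Pck1, G6pc, Pcx, Fbp1 and Slc37a4 of its group. The summed adipocyte markers were at 458 CPM in XZSW1, where the other XZSW libraries were at 49.7 to 63.3.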

How the results depend on the processing

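The count of members called in HUA against CTL was 9 under every alternative except 4 with the GC split as a term and 7 to 9 with 1 library left out. In XZSW against HUA it was 7, but 8 by DESeq2, 5 with the GC term, 2 with the 8 compared libraries alone, 2 without HUA1, XZSW1 and XZSW2, and 3 to 7 with 1 library left out. In XZSW against CTL it was 0 throughout. All tested genes called numbered 4208 to 6347, 1711 to 3817 and 133 to 1596 with 1 library left out. In XZSW against HUA they were 1439 with 8 libraries and 2013 without those 3 libraries, beside 3051 in the main fit. In XZSW against CTL they were 529 without a filter, 2417 by DESeq2, 1744 by limma on log2(FPKM + 0.1), 2625 with 8 libraries and 1750 with the GC term, beside 987. All-gene counts by DESeq2 and with the GC term are not given here for HUA against CTL and XZSW against HUA. Of 621 alternative values of single genes, 8 changed sign, none of them called. Slc37a4 in XZSW against CTL was 0.077 by library totals, 0.14 by limma with either pseudocount and 0.10 with the GC term. Gpt2 there was -0.025 without CTL3, -0.038 without XZSW1, -0.010 without XZSW2 and -0.20 without the 3 libraries. Library-total scaling shifted the median of all genes by 0.33, -0.17 and 0.16 in the 3 comparisons. The cause of these moves was not tested. The labels do not say that replicate numbers pair the samples, and pairing was not tested. Correlations of same-numbered samples were -0.0457 to 0.174. The own number was the best match in 8 of 12 cases, each among the 4 libraries of the other group. With a replicate block, 9, 7 and 0 members were called; Pck1 in XZSW against HUA was 1.62 (edgeR adjusted p = 0.0255) and Gpt2 -1.10 (0.0796).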
